A study of Mus musculus with 4 samples.

Results

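The genes of mitochondrial fatty acid oxidation were followed across 4 states of bone marrow-derived macrophages (BMDMs), with 1 Agilent whole mouse genome array for each state. They were the 9 genes Cpt1a, Slc25a20, Cpt2, Acadvl, Acadl, Acadm, Hadha, Hadhb and Ppargc1b, picked by gene name among 23212 genes with a symbol on the array, and 11 of the 55681 non-control probes carried these names. Cpt1a and Cpt2 had more than 1 probe each, and every other gene had 1. All 11 probes were well above background on all 4 arrays and none was saturated, so no gene was lost to a filter.

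Macrophages were grown from bone marrow of C57BL/6J mice aged 10 weeks by 6 days in L929 supernatant, followed by 2 days of stimulation. M1 macrophages were wild-type cells given IFN-γ at 20 ng per ml with LPS at 100 ng per ml. M2 macrophages were wild-type cells given IL-4 at 50 ng per ml. Lamtor1-deficient M2 macrophages were p18 (2400001E08Rik) -/- cells given the same IL-4. Lamtor1 is the subunit of the Ragulator that anchors this complex, and through it mTORC1, to lysosomes. Per the study's methods these cells come from Lamtor1 flox/flox LysM-Cre mice, so that Cre acts in the myeloid lineage only, and the methods name both floxed littermates and purchased C57BL/6J mice as controls. Torin1-treated M2 macrophages were wild-type cells given IL-4 with 250 nM Torin1, an inhibitor of the mTOR kinase in both of its complexes. The question of each comparison was how IL-4-stimulated cells differ when mTORC1 signalling or its lysosomal platform is disturbed, or when the stimulus is an inflammatory one.

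Long-chain fatty acids are activated to acyl-CoA on the outer side of mitochondria and cross the inner membrane as carnitine esters. Inside the matrix they are shortened by repeated cycles of dehydrogenation, hydration, a further oxidation and thiolysis, which yield acetyl-CoA and reduced electron carriers. IL-4-stimulated macrophages are known for their use of this pathway, and macrophages given LPS with IFN-γ for their reliance on glycolysis.

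No condition had a second array. No test was possible, and no value has an error between cultures. The only error at hand is that between spots of 1 probe. Among probes spotted 8 or more times and well above background on both arrays, the log2 ratio had a median SD over spots of 0.053 for Lamtor1-deficient over M2 (260 probes), 0.059 for Torin1-treated over M2 (256 probes) and 0.062 for M1 over M2 (243 probes). A log2 ratio within 0.11, 0.12 or 0.12 of 0, which is 2 such SDs, was therefore not distinguishable from 0 even as a measurement. Signals are given as normalised signal, the processed spot intensity divided by the 75th percentile of its array. That percentile was 287 on the M1 array, 595 on the M2 array, 536 on the Lamtor1-deficient array and 470.0 on the Torin1-treated array, so the M1 array was the dimmest. The levels are those of a whole culture, in which fewer cells of a type and less RNA per cell cannot be told apart. All 3 comparisons share the M2 array.

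The probe of the targeted gene, listed as 2400001E08Rik, had a normalised signal of 66.3 in M2, 1.55 in Lamtor1-deficient M2, 74.96 in Torin1-treated M2 and 51.2 in M1, which goes with the labels. Nos2, the inducible nitric oxide synthase of M1 macrophages, stood at 581 in M1, 0.38 in M2, 18.6 in Lamtor1-deficient M2 and 16.5 in Torin1-treated M2. Of the other M1 genes checked, Il6 and Cxcl10 were higher in M1 than in M2. Il12b was well above background on 0 of the 4 arrays. Mrc1, the mannose receptor of M2 macrophages, stood at 0.44 in M1, 126 in M2, 47.2 in Lamtor1-deficient M2 and 20.2 in Torin1-treated M2.

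M1 macrophages had less of most fatty acid oxidation transcripts than M2 macrophages. Cpt1a, Acadm, Hadha, Hadhb and Ppargc1b, 5 of the 9 genes, were lower by 2-fold or more, and 0 were higher by as much. The median log2 ratio of the 9 genes was -1.38, beside 0.078 over all 15795 genes counted. Of those, 27.8% were lower and 28.3% higher by 2-fold or more, so the 5 of 9 members stood against a high background of calls. With arrays set to their medians 8 of the 9 were lower, and so were 44.3% of all genes. At 1.5-fold the count was again 5 lower and 0 higher, with 35.1% of all genes lower and 38.0% higher.

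In Lamtor1-deficient M2 macrophages 6 of the 9 genes had log2 ratios between -0.23 and 0.14, and the 2 genes past 2-fold went opposite ways. Cpt1a was the only member lower by 2-fold or more and Acadl the only one higher, where 10.5% and 10.4% of the 15310 genes counted were lower and higher. The median log2 ratio of the 9 genes was -0.08, beside 0.084 over all genes counted. Below their M2 level lay 7 of the 9 genes (5 with arrays set to their medians) and 6668 of the 15310 genes counted. At 1.5-fold Slc25a20 joined the lower genes (2 lower, 1 higher), with 17.1% of all genes lower and 19.3% higher. A share of 1 in 9 is close to these backgrounds and is no result about the gene set as a whole.

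In Torin1-treated M2 macrophages 8 of the 9 genes lay below their M2 level, 4 of them by 1.5-fold or more. Over all genes, 7534 of the 15681 counted lay below their M2 level. Hadhb alone was lower by 2-fold or more and 0 were higher, with 15.2% of the 15681 genes counted lower and 15.0% higher. At 1.5-fold Acadvl, Hadha, Hadhb and Ppargc1b, 4 genes, were lower and Acadl was higher, with 24.7% of all genes lower and 26.7% higher. The median log2 ratio of the 9 genes was -0.49, beside 0.045 over all genes counted.

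**Figure D1:**
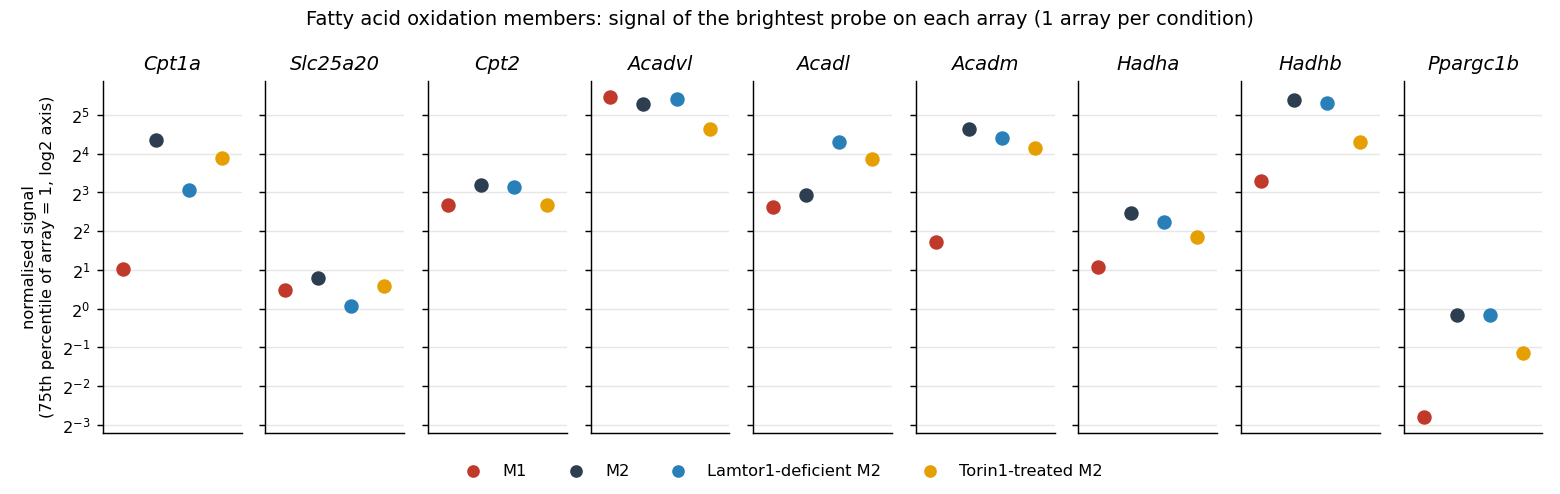
Normalised signal (log2 axis, 75th percentile of the array set to 1) of the brightest probe of each of the 9 genes, with 1 point per array in the order M1, M2, Lamtor1-deficient M2 and Torin1-treated M2. Heights compare arrays within a panel, not genes across panels. M1 is the lowest point for Cpt1a (2.02), Acadm (3.27), Acadl (6.21), Hadha (2.12), Hadhb (9.83) and Ppargc1b (0.14), the M1 and Torin1-treated points of Cpt2 coincide (6.43), and Acadl is the only gene whose Lamtor1-deficient (19.6) and Torin1-treated (14.5) points both lie above M2 (7.68).

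The carnitine shuttle brings long-chain acyl groups into the matrix. Cpt1a encodes the outer membrane carnitine palmitoyltransferase, the step that malonyl-CoA inhibits and that sets the rate of entry. Its brightest probe lies at chr19:3385374-3385433 (mm9, + strand), starts at base 3941 of the transcript and is printed on 10 spots, of which 9 were kept. The other probe lies upstream at chr19:3384060-3384119 and starts at base 2627 of the same transcript. The first 30 of the 60 bases of each are shown because both probes report the change of Cpt1a but not its size in M1.

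Cpt1a, brightest probe: tcttaggactacttgctaacctctgttact
Cpt1a, other probe: acagtcccccgaagtcttttgaatcggctc

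The normalised signal of the brightest probe was 20.6 ± 0.748 in M2, 8.30 ± 0.294 in Lamtor1-deficient M2, 14.9 ± 0.508 in Torin1-treated M2 and 2.02 ± 0.0919 in M1 (SD over 9 spots of 1 array). The spots of any array did not overlap those of another. Cpt1a was thus 10.2-fold lower in M1 than in M2 (log2 ratio -3.35 ± 0.049 over 9 spots), 2.48-fold lower in Lamtor1-deficient M2 (-1.31 ± 0.032) and 1.38-fold lower in Torin1-treated M2 (-0.47 ± 0.052). The SD over spots leaves out the spread between cultures.

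The other Cpt1a probe, at normalised signals of 1.05 in M2, 0.37 in Lamtor1-deficient M2, 0.78 in Torin1-treated M2 and 0.35 in M1, gave log2 ratios of -1.5, -0.43 and -1.60. Both probes put M2 first and Torin1-treated M2 next. They differed in M1, where the brightest probe fell well below the Lamtor1-deficient level and the other probe stood near it, with a log2 ratio of Lamtor1-deficient M2 over M1 of 2.04 and 0.11, respectively.

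**Figure D2:**
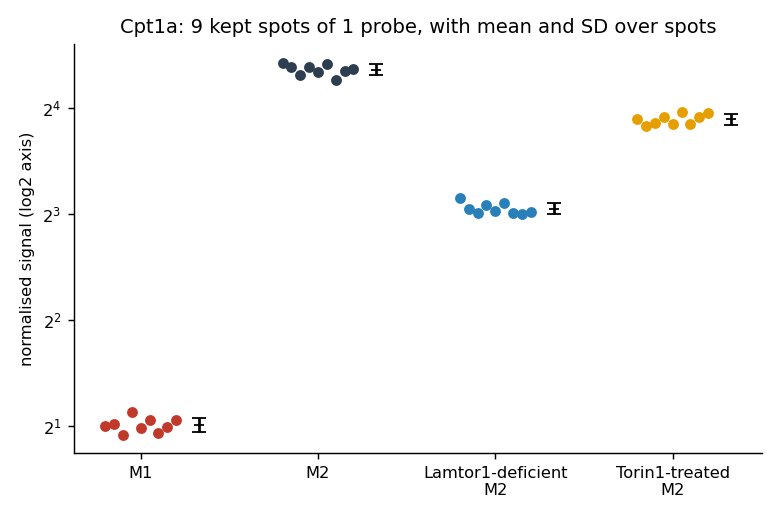
Normalised signal (log2 axis) of the 9 kept spots of the brightest Cpt1a probe on each array, with the mean and SD over spots beside them. The spots range from 19.2 to 21.6 in M2, from 14.2 to 15.6 in Torin1-treated M2, from 8.01 to 8.89 in Lamtor1-deficient M2 and from 1.89 to 2.20 in M1, with no overlap between arrays.

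Slc25a20 encodes the carnitine-acylcarnitine translocase of the inner membrane, and its probe lies at chr9:108585399-108585458. Its normalised signal was 1.73 in M2, 1.06 in Lamtor1-deficient M2, 1.5 in Torin1-treated M2 and 1.39 in M1. Lamtor1-deficient M2 was the lowest of the 4, with a log2 ratio to M2 of -0.71, and Torin1-treated M2 (-0.21) and M1 (-0.32) were nearer to M2. With arrays set to their medians M1 was the lowest instead, at -1.14 beside -0.65 for Lamtor1-deficient M2.

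Cpt2 encodes the inner membrane palmitoyltransferase that returns the acyl group to CoA, and its brightest probe lies at chr4:107576591-107576650. The normalised signal was 9.06 in M2, 8.82 in Lamtor1-deficient M2, 6.43 in Torin1-treated M2 and 6.43 in M1. The Lamtor1-deficient ratio of -0.04 lay within the technical error, and the ratios of Torin1-treated M2 (-0.49) and M1 (-0.50) were alike at this scaling. With arrays set to their medians they were -0.74 and -1.32. The dimmer Cpt2 probe gave -0.16, -0.84 and -0.41, with Lamtor1-deficient M2 again nearest to M2 and Torin1-treated M2 now below M1.

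The acyl-CoA dehydrogenases take the first oxidation of each cycle and differ in the chain length they prefer. Acadvl, for very long chains, has its probe at chr11:69823722-69823781 and stood at 39.1 in M2, 43.0 in Lamtor1-deficient M2, 24.9 in Torin1-treated M2 and 44.2 in M1. Only the Torin1-treated array was clearly apart, at a log2 ratio of -0.65. The ratios of Lamtor1-deficient M2 (0.14) and M1 (0.18) changed sign with the normalisation, to -0.051 for both under quantile normalization and, for M1, to -0.64 with arrays set to their medians.

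Acadl, the long-chain enzyme, has its probe at chr1:66877673-66877732, starting at base 1586 of the transcript. Its normalised signal was 7.68 in M2, 19.6 in Lamtor1-deficient M2, 14.5 in Torin1-treated M2 and 6.21 in M1, which is 2.55-fold above M2 without Lamtor1, 1.89-fold above it under Torin1 and 1.24-fold below it in M1. The log2 ratios were 1.35, 0.91 and -0.31. Over all alternatives run, the first stayed between 1.25 and 1.42 and the second between 0.67 and 1.06, so the higher level in both was kept, and the 2-fold mark under Torin1 was passed under quantile normalization alone. The M1 ratio lay between -1.13 and -0.30, and it passed the 2-fold mark with arrays set to their medians. Only 1 probe measured Acadl, and the start of that probe is shown.

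Acadl, probe: gtcttacttgtctttcaaattctgaagagc

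Acadm, for medium chains, has its probe at chr3:153585670-153585729. It stood at 24.9 in M2, 21.3 in Lamtor1-deficient M2, 17.7 in Torin1-treated M2 and 3.27 in M1. The M1 level was 7.63-fold lower than that of M2 (log2 ratio -2.93) and far below both other arrays. The log2 ratio was -0.23 in Lamtor1-deficient M2 and -0.49 in Torin1-treated M2.

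The mitochondrial trifunctional protein joins the hydratase and hydroxyacyl-CoA dehydrogenase on its alpha subunit, Hadha, with the thiolase on its beta subunit, Hadhb. The Hadha probe at chr5:30446215-30446274 gave normalised signals of 5.51 in M2, 4.72 in Lamtor1-deficient M2, 3.59 in Torin1-treated M2 and 2.12 in M1. The Hadhb probe at chr5:30510925-30510984 gave 41.9, 39.6, 19.8 and 9.83 in the same order. Both subunits therefore had the same order of arrays, from M2 down to M1.

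The log2 ratios of Hadha were -0.22 in Lamtor1-deficient M2, -0.62 in Torin1-treated M2 and -1.38 in M1. Those of Hadhb were -0.08, -1.08 and -2.09, so Hadhb had the larger distance from M2 in the last pair. In Lamtor1-deficient M2 it lay within the technical error, but at -0.29 beside -0.27 for Hadha under quantile normalization. The 2-fold mark of Hadhb under Torin1 was just missed, at -0.997, when the 75th percentile was taken over the probes detected on all arrays only.

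Ppargc1b encodes PGC-1beta, a coactivator that works with nuclear receptors on genes of oxidative metabolism, and its probe lies on chromosome 18. Its normalised signal was 0.90 in M2, 0.90 in Lamtor1-deficient M2, 0.46 in Torin1-treated M2 and 0.14 in M1. M2 and Lamtor1-deficient M2 were indistinguishable (log2 ratio -0.0047), Torin1-treated M2 was 1.97-fold lower (-0.98) and M1 6.23-fold lower (-2.64). The M1 spot was dim, at a processed intensity of 41.4 where the lowest probe well above background had 18.8, and normexp background correction with an offset brought the M1 ratio to -1.45.

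**Figure D3:**
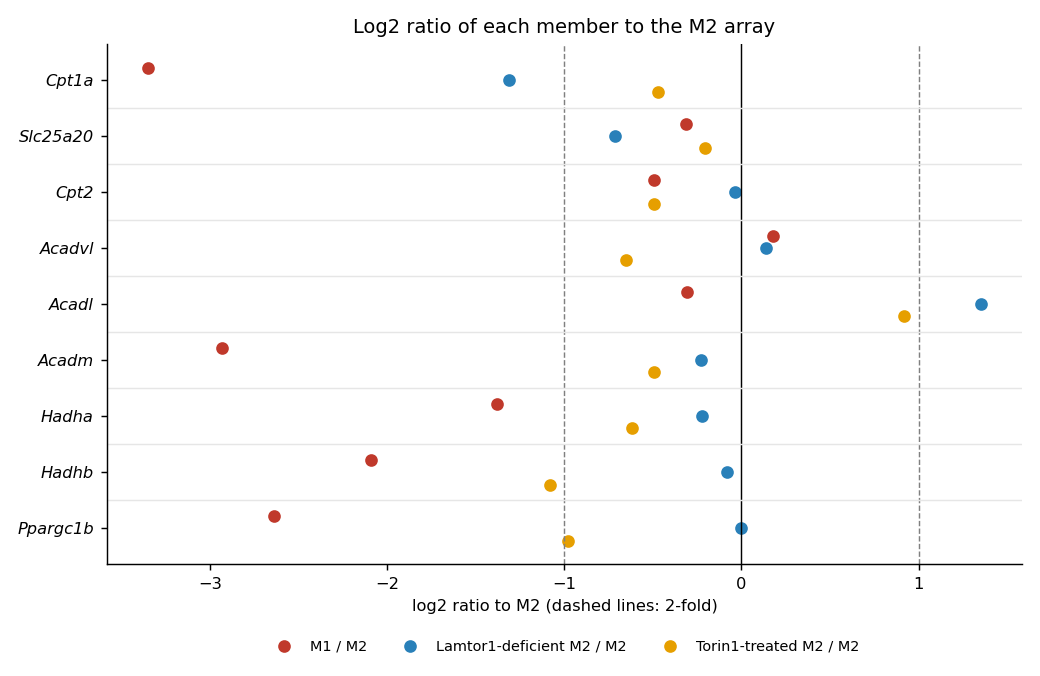
Log2 ratio of each of the 9 genes to M2 for M1, Lamtor1-deficient M2 and Torin1-treated M2 (1 array each, brightest probe), with dashed lines at 2-fold. Lamtor1-deficient points lie between -0.23 and 0.14 except for Cpt1a (-1.31), Slc25a20 (-0.71) and Acadl (1.35). Below 0 lie 7 of the 9 Lamtor1-deficient points, 8 of the 9 Torin1-treated points and 8 of the 9 M1 points.

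Set directly against each other, without the M2 array, Torin1-treated and Lamtor1-deficient M2 macrophages differed in both directions. Cpt1a and Slc25a20 of the carnitine shuttle were higher under Torin1, with log2 ratios of Torin1-treated over Lamtor1-deficient of 0.84 and 0.51. The other 7 genes, Cpt2 among them, were lower under Torin1, by a log2 ratio from -0.26 for Acadm to -0.9998 for Hadhb, with Ppargc1b at -0.98 and Acadvl at -0.79. The median over 15657 genes was -0.06. All 9 kept their sign in each of 11 settings, with Cpt1a between 0.53 and 1.07 and Hadhb between -1.31 and -0.75, but Acadm came as near to 0 as -0.029, Slc25a20 as 0.19 and Acadl as -0.20. Those of the 11 settings that only filter or floor dim probes cannot move these ratios. These are differences between 1 culture of each kind, with no test.

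Promoter windows of 300 bases, 250 before to 50 after the annotated start, were available for 8 of the 9 genes from RefSeq (GRCm38.p6). Hadha and Hadhb lie head to head, and 228 bases of their windows are the same DNA. The Hadhb window is shown with that shared part in capitals. The order of arrays that both transcripts had was also that of Acadm and is not particular to this pair. The windows of Cpt1a, Acadm and Acadl are shown too, and capitals there mark AGGTCA, a core motif of nuclear receptors, on either strand. Cpt1a and Acadm were picked because their brightest probes had the lowest M1 ratios at the scaling used. With all probes of a gene averaged, Cpt1a (-2.48) lay above Ppargc1b (-2.64) in M1. Acadl was picked as the only gene above M2 in Lamtor1-deficient and Torin1-treated M2.

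Hadhb, chr5:30155003-30155302 (+): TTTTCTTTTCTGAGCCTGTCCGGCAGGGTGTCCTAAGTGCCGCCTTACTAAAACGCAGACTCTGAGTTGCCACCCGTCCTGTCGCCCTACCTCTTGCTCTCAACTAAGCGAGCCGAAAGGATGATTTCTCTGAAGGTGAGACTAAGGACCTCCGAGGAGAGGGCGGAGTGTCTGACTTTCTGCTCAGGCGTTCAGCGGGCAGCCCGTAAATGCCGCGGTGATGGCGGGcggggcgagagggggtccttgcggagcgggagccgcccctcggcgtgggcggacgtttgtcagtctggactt
Cpt1a, chr19:3323051-3323350 (+): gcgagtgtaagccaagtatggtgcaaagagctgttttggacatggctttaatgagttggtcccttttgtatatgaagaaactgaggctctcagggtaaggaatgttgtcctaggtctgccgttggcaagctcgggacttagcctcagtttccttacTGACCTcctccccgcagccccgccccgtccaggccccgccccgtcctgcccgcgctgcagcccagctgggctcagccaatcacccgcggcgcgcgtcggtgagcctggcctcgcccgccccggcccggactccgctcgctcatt
Acadm, chr3:153944594-153944893 (-): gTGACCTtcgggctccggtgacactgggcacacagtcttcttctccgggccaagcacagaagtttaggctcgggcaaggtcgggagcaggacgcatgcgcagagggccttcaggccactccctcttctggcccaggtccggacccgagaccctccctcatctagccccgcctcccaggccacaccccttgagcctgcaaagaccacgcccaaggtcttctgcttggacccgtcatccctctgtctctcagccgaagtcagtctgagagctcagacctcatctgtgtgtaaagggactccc
Acadl, chr1:66863260-66863559 (-): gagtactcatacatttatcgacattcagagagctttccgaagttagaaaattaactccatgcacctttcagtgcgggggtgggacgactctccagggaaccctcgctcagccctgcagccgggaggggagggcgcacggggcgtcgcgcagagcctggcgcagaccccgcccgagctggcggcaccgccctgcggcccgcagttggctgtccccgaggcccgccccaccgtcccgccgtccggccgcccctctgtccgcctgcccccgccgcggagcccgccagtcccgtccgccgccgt

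All 8 windows had a higher ratio of observed to expected CpG than the median promoter (0.384), with Acadl the highest at 0.932 and Acadm the lowest at 0.459. AGGTCA was found in 3 of the 8 windows, those of Cpt1a (first base 94 before the start), Acadvl (87 before) and Acadm (249 before), and in 16.3% of all 32851 promoters. The direct repeat AGGTCANAGGTCA, the form bound by PPAR with RXR, was in 0 of 8 windows and 0.0396% of all promoters. TNAAGGTCA, the element of oestrogen-related receptors, which contains the core motif, was in 0 of 8 and 1.28% of all. The E-box CACGTG was in 0 of 8 and 7.15% of all, and TTCNNNNGAA, the spacing bound by STAT6, was in 0 of 8 and 6.95% of all. Both strands were searched, and these matches describe the letters of the windows only.

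The other enzymes of mitochondrial beta-oxidation, 22 genes on the array, had in part the same picture. In M1, 14 were lower and 1 was higher by 2-fold or more, beside 27.8% and 28.3% of all genes, with a median log2 ratio of -1.43. Hadh, the short-chain hydroxyacyl-CoA dehydrogenase, was at -4.93, Acads, the short-chain acyl-CoA dehydrogenase, at -3.62, Decr1, the dienoyl-CoA reductase for unsaturated chains, at -3.60, and Acat1, the acetoacetyl-CoA thiolase, at -3.27. Acaa2, the matrix thiolase, was at -3.20. Etfdh, which passes the electrons on to ubiquinone, was at -0.46. The higher gene was Acot13, a thioesterase, at 2.32.

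In Lamtor1-deficient M2, 0 of these 22 enzymes were lower and 3 were higher by 2-fold or more, beside 10.5% and 10.4% of all genes. The count higher is near its background and the count lower is below it. The median was 0.32, beside 0.084 over all genes counted. The 3 higher genes were Hsd17b10 (1.71), Acot13 (1.37) and Ivd (1.19), which serve branched-chain breakdown or thioester hydrolysis more than the long-chain spiral. Hadh was at -0.26, Acads at -0.55, Decr1 at 0.26, Acat1 at -0.18, Acaa2 at -0.01 and Etfdh at 0.58.

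Under Torin1, 4 of the 22 were lower and 0 higher by 2-fold or more, beside 15.2% and 15.0% of all genes. The count lower is near its background and the count higher is below it. The median was -0.32, beside 0.045 over all genes counted. The lower enzymes were Acaa2 (-1.28), Peci (-1.21), Acat1 (-1.13) and Decr1 (-1.13). Peci is the older name of Eci2, an enoyl-CoA isomerase. Hadh was at -0.91, Acads at -0.30 and Etfdh at -0.41.

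Other carnitine genes had 7 members counted, with medians of 0.18 in Lamtor1-deficient M2, 0.48 in Torin1-treated M2 and -0.05 in M1. The M1 median changed sign in 3 settings and moved further below 0 with arrays set to their medians. Slc22a4, a carrier of organic cations and ergothioneine, was at 2.74 in M1, 2.67 without Lamtor1 and 2.81 under Torin1. Crat, the carnitine acetyltransferase, was at -1.83 in M1, -0.51 without Lamtor1 and -2.59 under Torin1. Slc22a5, the carnitine importer, was at -1.40, 0.18 and 0.48. Slc25a29, a mitochondrial carrier of basic amino acids, was at 2.47 without Lamtor1 and 0.81 under Torin1 and was not well above background in M1, at least 1.28-fold lower there.

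The 6 genes that carry propionyl-CoA, the end product of odd chains, into succinyl-CoA had medians of -0.92 in M1, 0.40 in Lamtor1-deficient M2 and -0.61 in Torin1-treated M2. Mut, the mutase, was at -4.08, 0.29 and -0.79, and Pccb, a subunit of the carboxylase, at -3.60, 0.51 and -0.92. Mmaa, which serves the cobalamin cofactor of the mutase, went the other way at 2.69 in M1 and 1.32 under Torin1, with 0.04 without Lamtor1. Mcee, the epimerase, was at 1.34, 0.63 and -0.42.

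Genes of acyl-CoA synthesis and fatty acid supply, 18 in number, were divided, with 7 lower and 4 higher by 2-fold or more in M1, 3 and 7 in Lamtor1-deficient M2 and 3 and 5 in Torin1-treated M2. Over all genes the shares were 27.8% and 28.3%, 10.5% and 10.4%, and 15.2% and 15.0%. Mgll, the monoacylglycerol lipase, had a normalised signal of 2.60 in M2, 286 in Lamtor1-deficient M2, 66.1 in Torin1-treated M2 and 0.16 in M1. Lpl, the lipoprotein lipase, was at 345, 19.6, 7.82 and 3.41 in that order. Fabp3, a fatty acid binding protein, was at 0.66, 8.88, 1.46 and 37.5. Acsl6, an acyl-CoA synthetase, was well above background in M2 alone, at least 6.59-fold, 7.36-fold and 3.76-fold above the Lamtor1-deficient, Torin1-treated and M1 arrays.

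Peroxisomal beta-oxidation, which starts on very long chains, had 17 genes counted. In M1, 9 were lower and 3 higher by 2-fold or more (median -1.01, beside 27.8% and 28.3% of all genes). In Torin1-treated M2 the counts were 4 and 1 (median -0.64, beside 15.2% and 15.0%). In Lamtor1-deficient M2 they were 0 and 1 (beside 10.5% and 10.4%), with a median of -0.05 that was 0.011 with arrays set to their medians. The M1 median was -0.37 over genes well above background on both arrays and -0.31 with all probes of a gene averaged. Hsd17b4, the bifunctional enzyme, was at -3.53 in M1, -0.18 without Lamtor1 and -1.57 under Torin1. Pecr, the trans-enoyl-CoA reductase, was at -3.07, 0.62 and -0.40. Ehhadh, a second bifunctional enzyme, was at -0.31 without Lamtor1 and -2.04 under Torin1, and Abcd2, a transporter of very long chains, at -0.95 and -0.76. In M1 neither was well above background, at least 5.0-fold and 11.5-fold lower than in M2.

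The regulators had 14 genes counted, with medians of -0.02, 0.01 and 0.22 in M1, Lamtor1-deficient M2 and Torin1-treated M2, each of which changed sign under at least 1 other normalisation. Pparg was at -2.91, 0.43 and 0.51, Ppard at 2.05, 0.99 and 1.19, and Ppara at 0.20, -0.43 and -0.73. These are the nuclear receptors activated by fatty acids, and Rxra, their partner, was at 4.38, 0.39 and 1.37. Ppargc1a, the better known sister of Ppargc1b, was well above background on 0 of the 4 arrays. The third coactivator of this family, Pprc1, was at -1.60, 0.02 and -0.21, Esrra, the orphan receptor that the coactivators bind, at 0.44, -0.06 and -0.44, and Tfb2m, a mitochondrial transcription factor, at -3.77, 0.05 and -0.30.

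PPAR-linked genes outside beta-oxidation had medians of -1.56 in M1 (7 counted), -0.99 in Lamtor1-deficient M2 (7 counted) and -1.04 in Torin1-treated M2 (8 counted). Under Torin1 the list was divided, with Pdk4 at 2.20 and Plin2 at 1.69, while Cidec, well above background in Torin1-treated M2 only, was at least 1.35-fold higher. With dim genes kept these medians became -0.82, 0.11 and -0.24, and with all probes of a gene averaged the Lamtor1-deficient median was -0.48. Angptl4, an inhibitor of lipoprotein lipase, was at -4.25, -1.71 and -1.02. Ucp2, a mitochondrial carrier, was at -1.56, -1.15 and -2.88, Ucp3, of the same carrier family, at -1.65, -0.99 and -3.06, and Acot1, a thioesterase, at -3.11, 0.20 and -1.07. The Ucp2 and Ucp3 probes also had like normalised signals, at 30.6 and 34.7 in M2 and 4.14 and 4.16 in Torin1-treated M2. Whether they report separate transcripts was not tested.

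The 11 genes of malonyl-CoA and AMPK control had a median of -1.21 in M1, and it was -0.87 with signals floored at the lowest detected one and -0.96 after normexp correction. In M1 6 were lower by 2-fold or more and 1 higher, beside 27.8% and 28.3% of all genes, and the 6 include Prkaa2, which was not well above background in M1 and has no bound there. The counts were 0 and 2 in Lamtor1-deficient M2 (median -0.02, beside 10.5% and 10.4% of all genes). In Torin1-treated M2 they were 1 and 1 (median -0.07, beside 15.2% and 15.0%). Both of these medians changed sign under at least 1 other normalisation. Acaca, the cytosolic acetyl-CoA carboxylase whose product inhibits Cpt1a, was at -3.26 in M1, 1.01 without Lamtor1 and -1.78 under Torin1. The AMPK subunits Prkaa1 and Prkag2 were at -2.23 and -3.19 in M1, -0.02 and -0.24 without Lamtor1, and -0.67 and -0.62 under Torin1. Prkaa2 was at 1.28 without Lamtor1 and 1.13 under Torin1.

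General mitochondrial genes, 15 in number, had a median like that of the members in M1. There, 9 were lower and 0 higher by 2-fold or more, beside 27.8% and 28.3% of all genes, with a median of -1.22, beside -1.38 for the 9 members. Hspd1, a matrix chaperone, was at -3.16, Tomm40, the import pore, at -3.11, Phb, a prohibitin, at -2.39, and Sdha, of the succinate dehydrogenase, at -1.27. In Lamtor1-deficient M2 the median was 0.26, with 0 genes past 2-fold, beside 10.5% of all genes lower and 10.4% higher. In Torin1-treated M2 it was -0.18, with 1 lower and 0 higher, beside 15.2% and 15.0% of all genes. The part of mitochondrial content in the members' ratios was not tested. The 12 housekeeping genes had medians of -0.15, 0.10 and 0.11 in M1, Lamtor1-deficient M2 and Torin1-treated M2, of which the last pair changed sign under quantile normalization (-0.07 and -0.35). Their M1 median was -0.60 under quantile normalization and -0.98 with arrays set to their medians.

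**Figure D4:**
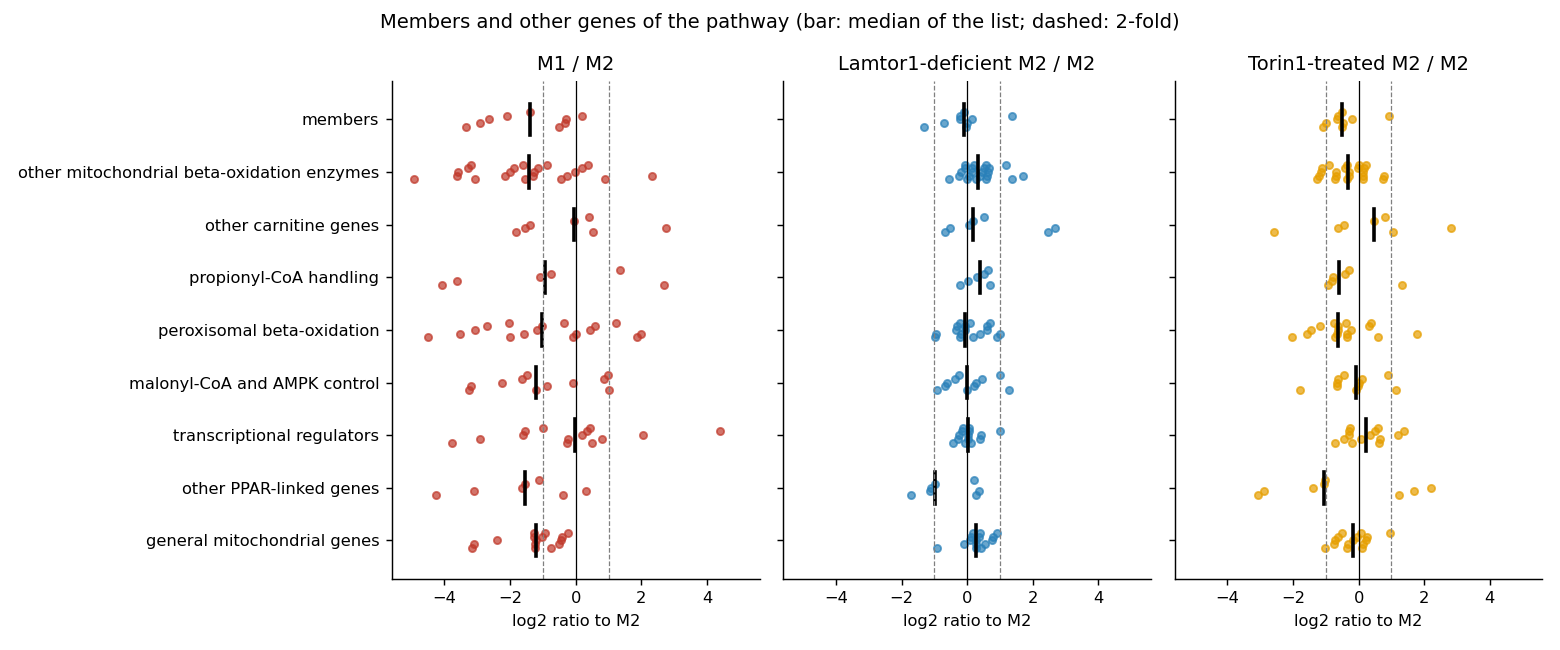
Log2 ratio to M2 of every gene counted in the 9 members and 8 other lists (1 point per gene, brightest probe; black bar, median of the list; dashed lines, 2-fold), in 1 panel each for M1, Lamtor1-deficient M2 and Torin1-treated M2. In M1 the members (-1.38), the other mitochondrial enzymes (-1.43) and the general mitochondrial genes (-1.22) have medians past 2-fold lower, and so have the PPAR-linked (-1.56), malonyl-CoA and AMPK (-1.21) and peroxisomal (-1.01) lists, but not in every setting, the PPAR-linked median being -0.82 with dim genes kept, the malonyl-CoA one -0.87 with floored signals and the peroxisomal one -0.31 with all probes of a gene averaged. In Lamtor1-deficient M2 the medians of the other mitochondrial enzymes (0.32) and the general mitochondrial genes (0.26) lie above 0.

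The 3 genes whose ratios were most like those of Cpt1a, by Euclidean distance over the 3 log2 ratios among 12825 genes detected above background throughout, were Cd300lb (distance 0.14), Nelf (0.24) and Mcm7 (0.37). Cd300lb, an activating receptor of myeloid cells, was at -3.27 in M1, -1.25 in Lamtor1-deficient M2 and -0.37 in Torin1-treated M2. Nelf, an older name of Nsmf, was at -3.23, -1.26 and -0.66, and Mcm7, a subunit of the replicative helicase, at -3.04, -1.23 and -0.64.

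Markers of other cells differed between the arrays. All 7 macrophage markers were well above background on all 4 arrays, with summed normalised signals of 690.4 in M2, 468 in Lamtor1-deficient M2, 543 in Torin1-treated M2 and 404 in M1. The 10 neutrophil markers summed to 92.2 in M2 and to 6.62, 12.7 and 6.11 in the same order. S100a9 alone gave 65.3 in M2, and Ltf, of neutrophil granules, 5.04. Not all of the list was highest in M2, since Mmp8 stood at 1.18 in M2, 0.14 in Lamtor1-deficient M2, 6.52 in Torin1-treated M2 and 1.48 in M1. Each ratio to M2 is thus taken against the array with the highest summed neutrophil signal. The 8 adipocyte markers summed to 3.36 in M2, 6.76 in Lamtor1-deficient M2, 0.49 in Torin1-treated M2 and 1.23 in M1, with Adipoq at 0.64 in M2 and 6.44 in Lamtor1-deficient M2. Retn went the other way, from 2.54 in M2 to a level not well above background in Lamtor1-deficient M2, at least 65.8-fold lower, while Plin1, Lep and Cfd were well above background on 0 of them. The 10 fibroblast markers summed to 45.2, 57.5, 17.2 and 17.9 and the 11 lymphocyte markers to 3.57, 3.77, 2.79 and 4.77. The part of these cells in the members' ratios was not tested.

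**Figure D5:**
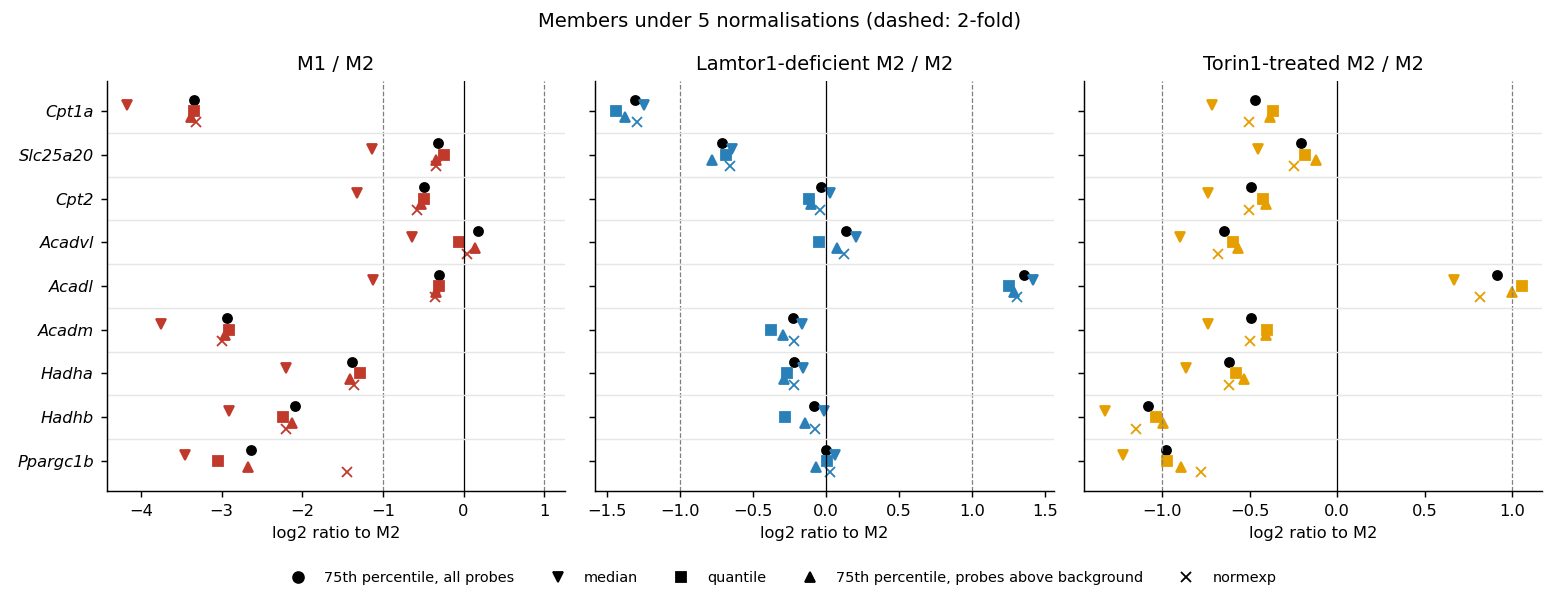
Log2 ratio to M2 of the 9 genes under 5 normalisations (marker shapes; dashed lines, 2-fold), in 1 panel per comparison. Setting arrays to their medians moves all M1 ratios lower, with Acadvl from 0.18 to -0.64, and all Torin1-treated ratios lower to a lesser extent, whereas Cpt1a (-1.44 to -1.25) and Acadl (1.25 to 1.42) keep their side in Lamtor1-deficient M2.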

How the data were processed

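RNA of 4 cultures was hybridized to 1-colour Agilent arrays on the same slide. The authors deposited scanner output in which the processed intensity of each spot is background-subtracted and detrended but not normalized between arrays. Per the labels and methods Feature Extraction 10.5.1.1 was used, and the file headers name 10.7.3.1. A table of the series holds the same processed intensities, rounded (largest difference 0.497%). Probe positions are those of the file annotation (mm9).

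As in the study's methods, raw signals were thresholded at 1.0 and each array was shifted to its 75th percentile. Control spots and outlier spots were left out and spots of a probe were averaged. A gene was represented by the probe with the highest mean log2 signal over the 4 arrays, and was counted where that probe was well above background on at least 1 of both arrays compared. The counted folds were 2 and 1.5. A gene above background on 1 array has only a bound against the lowest signal called well above background, written "at least", although counts and medians use its measured signals. Since each condition had a single array, nothing was tested, and precision is limited by this number.

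The members and lists were chosen with earlier results of these data known. Named are all members, the targeted gene, the 4 genes with the largest ratio in each pathway list, in any case Ppargc1a, Pprc1, Esrra, Ppara, Ppard, Pparg, Acaa2, Hadh, Acads and Etfdh, and the 3 genes nearest to Cpt1a. Other lists are given by counts, sums or medians with single examples. Acot13, Hsd17b10, Ivd, Peci, Pdk4, Plin2, Cidec, Mmp8, Csf1r, Emr1, Fcgr1, Cd68 and Mertk were picked for their values. Acad12, Perm1, Elane and Ly6g had no probe by these names. The steps were tested on simulated data. Software was Python 3.11.15 with NumPy 2.4.6 and pandas 2.3.3, and R 4.3.3 with limma 3.58.1.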

Additional observations from a re-analysis of the deposited data

How the results depend on the processing

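Of 270 recomputed ratios of single members, 197 moved by less than the technical SD, 73 moved by more, and 0 past 2-fold changed sign. Settings that only filter or floor dim probes cannot move a member ratio, because all member probes were well above background. Averaging of probes can move only Cpt1a and Cpt2, and the series values are the same intensities rounded. The 197 therefore include ratios that could not move. The median log2 ratio of the members was -2.20 in M1 with arrays set to their medians and -1.29 under quantile normalization. For Lamtor1-deficient M2 it was -0.017 and -0.27 under these, and -0.15 with the 75th percentile taken over detected probes only. For Torin1-treated M2 it was -0.74, -0.42 and -0.41 in the same order, and -0.62 with all probes of a gene averaged. The count past 2-fold was 8 in M1 and 2 in Torin1-treated M2 with arrays set to their medians, where 25.4% and 35.0% of the calls over all genes were higher, beside 50.4% and 49.6% as reported. The median of all genes then stood at -0.74 in M1 and -0.20 in Torin1-treated M2. In Torin1-treated M2 the count was also 2 under quantile normalization, 0 with the 75th percentile of detected probes, 5 at 1.5-fold and 0 at 3-fold. In Lamtor1-deficient M2 it was 0 at 3-fold. The cause was not tested. Of 300 list medians 187 moved by less than the technical SD and 23 changed sign, each of them under 2-fold. No paired analysis was possible because each condition had 1 array.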
